A study of Mus musculus with 19 samples.

Results

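Solute carriers are membrane proteins that move sugars, amino acids, ions, metals, nucleosides and other small molecules across the plasma membrane and the membranes of organelles. The genes described here are those whose symbol starts with Slc, apart from the mitochondrial Slc25 carriers, and that reached a set level on the arrays. Each gene was read through its brightest probe set, a probe set being the group of probes that together measure 1 transcript. Brightness was the mean of log2(signal + 16) over all 19 samples, and a gene was kept where this mean was at or above 6.09, the median over all probe sets other than controls. Of 318 such genes measured, 173 met this level and 145 did not. The 173 carriers are part of 11533 genes tested in all. The members were selected on this mean level, which is therefore a description and no result. Just inside the limit lay Slc22a26 at 6.09, Slc16a8 at 6.12 and Slc9a3 at 6.12, and just outside it Slc24a4 at 6.08, Slc22a12 at 6.07 and Slc35g3 at 6.06. Among the 173, the symbol also brought in 4 genes that are not carriers but were named after one (Slc9a3r1, Slc9a3r2, Slc7a6os and Slc4a1ap).

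The study compared the EDL (extensor digitorum longus), a hind limb muscle made mostly of fast fibres, between 9 wild-type samples and 10 samples of transgenic HSALR mice of line 20 b. All were of the FVB strain and aged 19 weeks. HSALR mice express, in skeletal muscle fibres and from the human skeletal actin gene, an RNA with a long CUG repeat, as a mouse model for the muscle disease myotonic dystrophy, and all transgenic samples here came from the 1 line named. Total RNA of each sample was labelled with biotin and measured on 1 Affymetrix array, and the values are signal intensities on a linear scale. Whether each sample is a different animal is not in the labels, and p-values then cover only the sample-to-sample spread, part of which may be technical.

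Muscle takes up glucose through carriers of the Slc2 family, of which Slc2a4 (GLUT4) moves to the cell surface in response to insulin and contraction. It exchanges lactate through Slc16 carriers and amino acids through carriers of the Slc1, Slc6, Slc7 and Slc38 families. Chloride, potassium, proton and bicarbonate carriers set cell volume and pH, and other members work inside the cell, in the endoplasmic reticulum, the Golgi and the lysosome.

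Median array signals ranged from 39.7 to 71.9, and precision is limited by how many arrays there are. The skeletal muscle marker genes Ckm and Myh4 were at mean log2 levels of 13.6 and 13.7 in both groups, and limma called 0 of 14 muscle markers and 0 of 9 slow fibre markers, with 1 and 0 at an unadjusted p under 0.05. The slow fibre markers nonetheless varied widely between samples, with a mean log2 level after quantile normalization from 8.32 to 11.6 in wild type. Their median log2 fold was -0.66 on that scale and -0.60 as deposited. Of markers of other cells, limma called higher in HSALR 1 of 12 macrophage genes (Cd68; 8 at an unadjusted p under 0.05), 1 of 10 fibroblast genes (Pdgfra), 1 of 8 smooth muscle genes (Tagln) and 2 of 4 fat cell genes (Adipoq and Retn). Without HSALR replicates 9 and 10, described next, the calls of Pdgfra and Tagln were lost (adjusted p = 0.0735 and 0.125). Over all samples limma called 0 of 12 endothelial genes, with 1 at an unadjusted p under 0.05, and 0 of 5 Schwann cell, 5 neutrophil and 2 erythroid genes, with 0 at that level. HSALR replicates 9 and 10 stood apart from the other arrays. Their Spearman correlation over the tested probe sets was 0.978, while the other arrays had 0.953 to 0.969 with their closest one. After quantile normalization the mean log2 level of the 12 macrophage genes was 1.56 above the wild-type mean in each of them, against -0.25 to 0.47 in HSALR replicates 1 to 8. For the 10 fibroblast genes it was 1.51 and 1.45 above, against -0.51 to 0.46. In RNA of whole muscle, fewer cells of a type and less RNA per cell cannot be told apart. The part of these other cells in the carrier results was not tested. Results without replicates 9 and 10 are given where leaving them out ends a call made with the scaling as deposited.

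Between HSALR and wild type, 4 of the 173 carriers were higher and 11 were lower, at an adjusted p under 0.05 by limma over all probe sets tested. That is 2.31% higher and 6.36% lower. Among all 11533 genes read in the same way 359 were higher (3.11%) and 266 lower (2.31%), so the share of carriers that were higher was near that of all genes and the share that were lower was above it. No test of this difference in shares was made. With limma's array weights 17 of the 173 carriers were higher and 10 lower, and of the 11533 genes 1250 were higher. The median log2 fold over the carriers was 0.05, as it was over all genes, with 109 carriers above 0 and 64 below. At an unadjusted p under 0.05, 22 of the 173 carriers were higher and 17 lower, against 1594 (13.8%) and 862 (7.47%) of the 11533 genes. At that threshold the share of carriers lower was nearer to that of all genes.

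The carriers that fell included Slc38a4, Slc7a4 and Slc16a10 of the amino acid carrier group and Slc37a4, Slc2a3 and Slc45a4 of the sugar carriers. The others that fell were the peptide carrier family member Slc15a5, the ion exchangers Slc9a2 and Slc26a6, and Slc22a7 and Slc22a17 of the organic ion carriers. Those that rose were Slc1a1, Slc22a4, Slc47a1 and Slc16a6. All 15 were also called, in the same direction, after quantile normalization, and all 15 in each of the 19 fits that left out 1 sample. In 2 carriers, Slc38a4 and Slc37a4, every HSALR sample lay below every wild-type sample, a separation found in 0.295% of all genes. No carrier had every HSALR sample above, which 0.434% of all genes had. The mean of Slc22a4 met the level in HSALR only, so the rule could keep it only if it was high there. Among the 168 carriers that met the level in both groups 3 were higher and 11 lower. Log2 folds are differences of log2(signal + 16), HSALR minus wild type, so they understate changes of dim genes, and errors are standard errors from the limma fit.

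**Figure D1:**
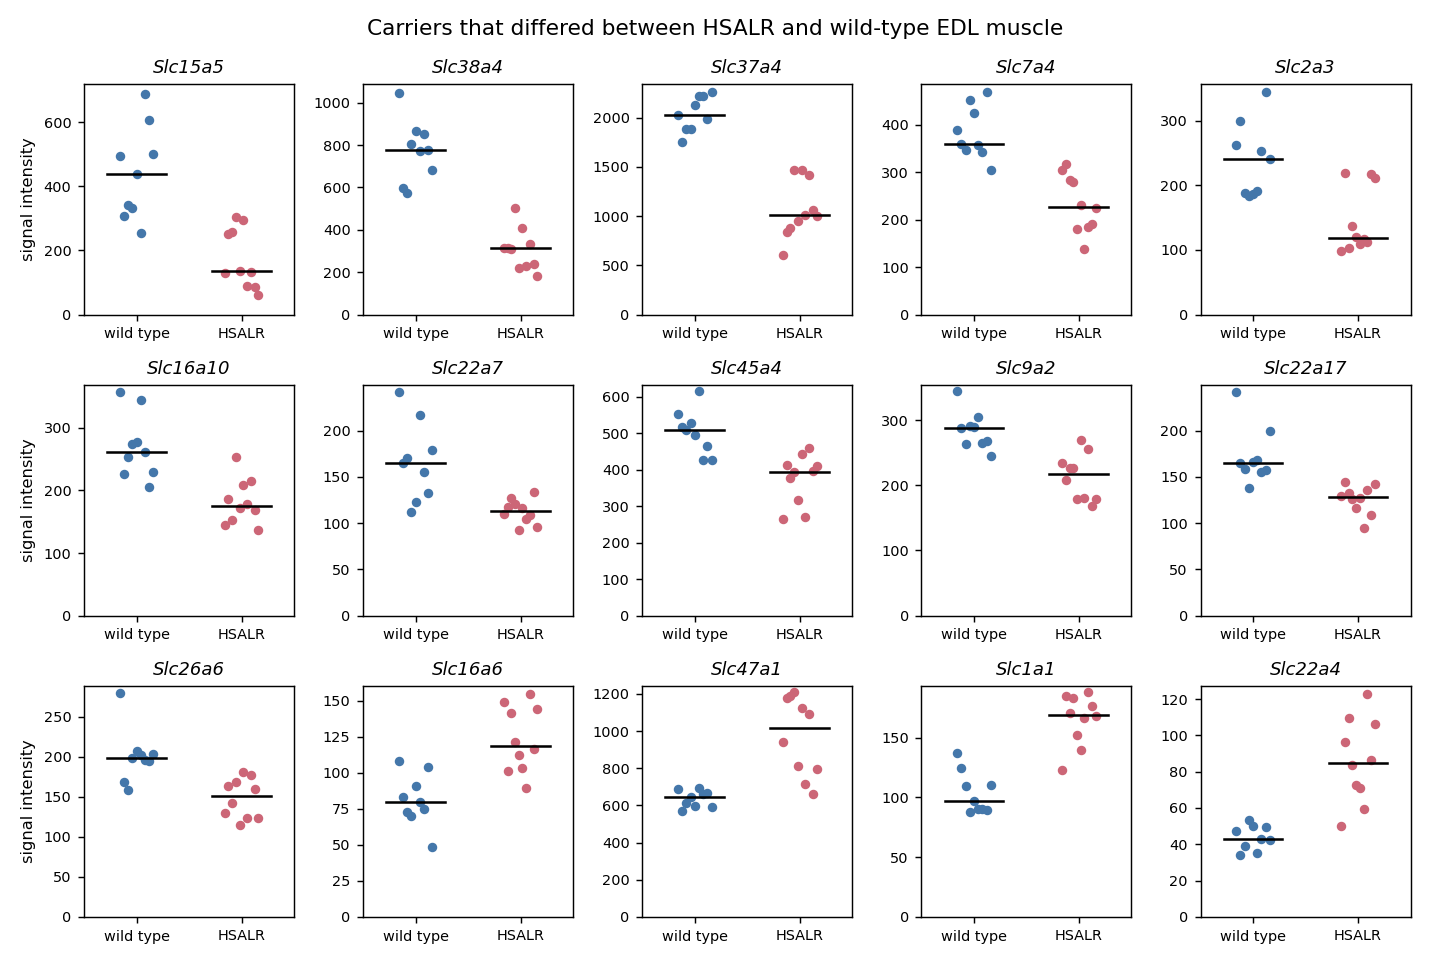
Signal intensity on a linear scale from 0 (vertical axis) of the 15 carriers that differed, in each of the 9 wild-type samples (blue) and 10 HSALR samples (red), with the group median as a black line. Slc38a4 and Slc37a4 are the 2 panels in which no HSALR sample reaches the wild-type range.

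For the 3 falls and 2 rises with the largest log2 folds, the 250 bases before the first transcription start that RefSeq lists are shown, as the sequence upstream of carriers that moved in opposite directions. They are from build GRCm38.p6 and read 5′ to 3′ on the gene's strand. Capitals mark E-boxes, CANNTG, the letters that muscle regulatory factors and other helix-loop-helix proteins bind.
Slc15a5: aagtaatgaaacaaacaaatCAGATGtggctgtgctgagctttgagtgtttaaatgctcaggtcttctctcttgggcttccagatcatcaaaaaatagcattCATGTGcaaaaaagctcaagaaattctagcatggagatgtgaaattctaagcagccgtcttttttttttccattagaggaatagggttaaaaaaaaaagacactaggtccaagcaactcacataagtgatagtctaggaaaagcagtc
Slc38a4: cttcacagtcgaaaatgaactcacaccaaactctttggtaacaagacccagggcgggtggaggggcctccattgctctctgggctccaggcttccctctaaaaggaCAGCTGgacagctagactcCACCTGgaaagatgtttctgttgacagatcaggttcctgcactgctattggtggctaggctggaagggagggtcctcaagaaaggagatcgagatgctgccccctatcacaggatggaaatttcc
Slc37a4: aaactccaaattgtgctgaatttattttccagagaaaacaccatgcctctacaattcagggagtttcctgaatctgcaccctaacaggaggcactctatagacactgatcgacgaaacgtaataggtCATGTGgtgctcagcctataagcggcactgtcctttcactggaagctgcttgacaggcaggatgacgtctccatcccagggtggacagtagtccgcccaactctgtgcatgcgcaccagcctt
Slc22a4: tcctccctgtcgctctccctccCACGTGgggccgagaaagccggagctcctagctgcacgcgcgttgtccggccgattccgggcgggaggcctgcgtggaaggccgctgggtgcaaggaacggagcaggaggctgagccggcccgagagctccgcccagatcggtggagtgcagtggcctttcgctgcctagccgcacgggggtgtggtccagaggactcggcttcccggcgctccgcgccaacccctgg
Slc1a1: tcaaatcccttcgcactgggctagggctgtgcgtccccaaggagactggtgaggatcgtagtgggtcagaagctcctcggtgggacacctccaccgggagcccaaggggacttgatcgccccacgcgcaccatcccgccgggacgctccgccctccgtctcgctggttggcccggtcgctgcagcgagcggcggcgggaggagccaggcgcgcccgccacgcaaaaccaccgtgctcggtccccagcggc

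These windows lie at chr6:138079917-138080166 (minus strand) for Slc15a5, chr15:97055957-97056206 (minus) for Slc38a4, chr9:44396696-44396945 (plus) for Slc37a4, chr11:54028105-54028354 (minus) for Slc22a4 and chr19:28834885-28835134 (plus) for Slc1a1. RefSeq lists 3 starts each for Slc38a4 and Slc37a4. The windows of the 3 carriers that fell hold 2, 2 and 1 E-boxes in the order Slc15a5, Slc38a4 and Slc37a4, that of Slc22a4 holds 1, and that of Slc1a1 holds 0. Their G and C content was 37.2%, 52.8% and 49.6% for the carriers that fell and 71.2% and 70.4% for Slc22a4 and Slc1a1. These windows were picked by fold, and Slc22a4 was among the carriers only through its level in HSALR. No value over all windows is given beside them. A link between G and C content and direction was not tested. A promoter was listed for 130 of the 173 carriers and for 8 of the 15 that differed. An E-box on either strand was found in 66.2% of the 32851 windows of all genes, which take every listed start. It was found in 63.1% of the 130 carrier windows and in 5 of the 8 (62.5%). These carrier windows take only the first listed start. The MEF2 letters CTANNNNTAG were found in 3.2% of all windows, 4.62% of carrier windows and 0 of the 8, and the core of the amino acid response element, TGATGNAA, in 3.45%, 3.85% and 0 of the 8. No match overlapped another in the windows printed. A match describes the letters only.

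Of 15 sugar carriers, 3 fell and 0 rose by limma, with 0 higher at an unadjusted p under 0.05, and the median log2 fold was -0.08. Slc37a4 moves glucose 6-phosphate into the endoplasmic reticulum, where it is split to glucose. Its signal ran from 1750 over a median of 2022 to 2262 in wild type, and from 603 over 1008 to 1469 in HSALR. All 10 HSALR samples lay below the wild-type range, and the log2 fold was -0.96 ± 0.14 (1.95-fold, adjusted p = 9.7e-05). Slc2a3 (GLUT3) is a high-affinity glucose carrier best known from neurons. Its signal was 183 to 345 in wild type (median 241) and 98.1 to 219 in HSALR (median 119), with 7 of 10 HSALR samples below all wild-type ones and a log2 fold of -0.69 ± 0.16 (adjusted p = 0.0118). The 3 highest HSALR values included replicates 9 and 10, at 218 and 211, and without these the log2 fold was -0.84. The probe set read for Slc2a3 is one that can share sequence with other transcripts, and its second one had -0.31 ± 0.13 (adjusted p = 0.164). Slc45a4, of a family of proton-coupled sugar carriers, had 426 to 615 in wild type (median 508) and 265 to 461 in HSALR (median 394), and fell by 0.43 ± 0.11 on the log2 scale (adjusted p = 0.0224). Its other probe sets had -0.27 and -0.01, and for the mean of its probe sets the log2 fold was -0.23 (adjusted p = 0.18).

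Slc2a4, the insulin-regulated GLUT4, did not pass: its signal was 3950 to 5161 in wild type (median 4293) and 2938 to 5106 in HSALR (median 3797), with 6 of 10 HSALR samples below the wild-type range. The log2 fold was -0.14 ± 0.10 (95% interval -0.35 to 0.06, adjusted p = 0.441), and -0.23 after quantile normalization (adjusted p = 0.0547). The basal glucose carrier Slc2a1 (GLUT1) had 0.22 ± 0.13 (adjusted p = 0.362), and Slc2a12, another glucose carrier of muscle, 0.04 ± 0.10, which was -0.01 after quantile normalization. Of 22 tested genes of insulin-regulated glucose transport, 2 were lower and 0 higher by limma, with 3 each way at an unadjusted p under 0.05. Tbc1d4, the Akt substrate that holds back Slc2a4 vesicles, had -0.42 ± 0.11 (adjusted p = 0.02). Sort1, a sorting receptor of those vesicles, had -0.41 ± 0.12 (adjusted p = 0.0397), and without HSALR replicates 9 and 10 its adjusted p was 0.0872. The median log2 fold of this list was 0.07.

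Of 30 amino acid carriers, 3 fell and 1 rose, with a median log2 fold of 0.07. Slc38a4 carries small neutral amino acids with sodium and is an imprinted gene in the mouse. Its signal was 576 to 1047 in wild type (median 777) and 183 to 503 in HSALR (median 312). No HSALR sample reached the lowest wild-type one, and the log2 fold was -1.34 ± 0.15 (2.53-fold, adjusted p = 8.66e-06), the smallest p among the carriers. A second, dimmer probe set of Slc38a4 had -0.54 ± 0.17 (adjusted p = 0.0719). Whether both probe sets changed alike was tested with limma's diffSplice, at an adjusted p of 0.0739. Slc7a4, of the cationic amino acid carrier family, had 304 to 471 in wild type (median 360) and 139 to 318 in HSALR (median 227). In 9 of 10 HSALR samples it was below the wild-type range, with a log2 fold of -0.70 ± 0.13 (adjusted p = 0.00214).

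Slc16a10, which lets aromatic amino acids pass the membrane, had 205 to 358 in wild type (median 261) and 136 to 254 in HSALR (median 175). Its log2 fold was -0.53 ± 0.12 (adjusted p = 0.00823), with 7 of 10 HSALR samples below all wild-type ones. Its other probe sets had -0.22 ± 0.11 and 0.03 ± 0.09 (diffSplice adjusted p = 0.0662), and the mean of its 3 probe sets had -0.24 (adjusted p = 0.133), so this call rests on the brightest one. Slc1a1 takes up glutamate, aspartate and cysteine and went the other way. It had 87.7 to 137 in wild type (median 96.6) and 123 to 188 in HSALR (median 169), above the wild-type range in 9 of 10 samples, with a log2 fold of 0.60 ± 0.10 (1.51-fold, adjusted p = 0.000486). Its second probe set had 0.26 ± 0.15 (adjusted p = 0.334). Over the 68 carriers with several probe sets 0 differed between probe sets by diffSplice, with 5 at an unadjusted p under 0.05, against 1.9% called of 4782 genes.

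Among the amino acid carriers that did not pass, the leucine and phenylalanine carrier Slc43a2 came closest. Its brightest probe set had 0.54 ± 0.16 (adjusted p = 0.0535, with HSALR replicates 9 and 10 at 397 and 401 and the other HSALR samples at 154 to 375), and its dimmer one 0.39 ± 0.09 (adjusted p = 0.0135). Slc38a2, the sodium-coupled carrier that amino acid shortage induces in many cells, had 0.31 ± 0.15 (adjusted p = 0.234), and the arginine and lysine carriers Slc7a1 and Slc7a2 had 0.38 ± 0.14 (adjusted p = 0.132) and -0.17 ± 0.12 (adjusted p = 0.47). Slc7a5, which takes up large neutral amino acids, and Slc3a2, the chain that brings it to the surface, had -0.19 ± 0.26 and -0.04 ± 0.16. Of 23 tested genes of amino acid sensing and response, 3 were lower and 0 higher by limma, with 6 higher at an unadjusted p under 0.05. The 3 lower ones were Chac1, an enzyme that breaks down glutathione and is a target of the stress factor ATF4, at -0.97 ± 0.23 (adjusted p = 0.0148), and Lamtor2 and Lamtor4 of the lysosomal complex that recruits mTORC1, at -0.39 ± 0.10 (adjusted p = 0.0167) and -0.36 ± 0.09 (adjusted p = 0.0185). The median log2 fold of this list was 0.08.

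**Figure D2:**
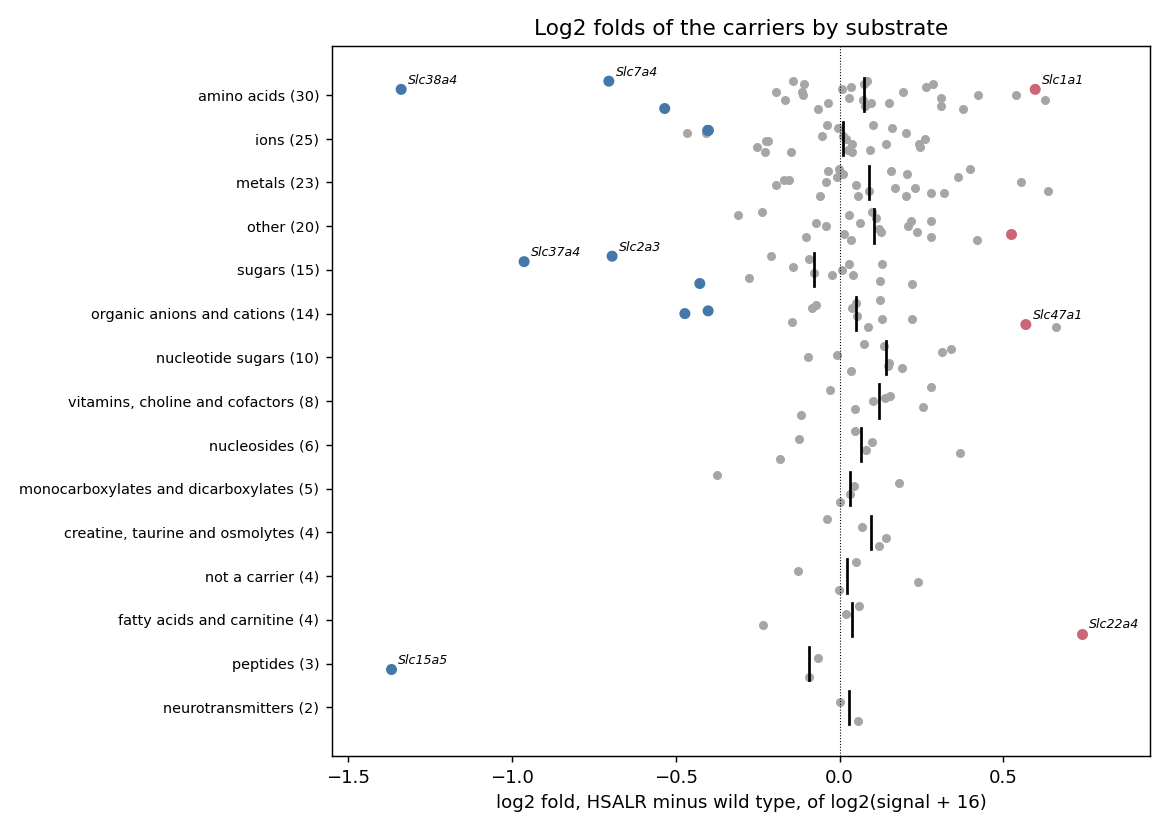
Log2 fold, HSALR minus wild type, of each of the 173 carriers (points; horizontal axis, in log2(signal + 16)), by substrate group with the number of members in brackets. Blue points fell, red points rose, grey points did not pass, and black bars are group medians. Slc15a5 at -1.37 and Slc38a4 at -1.34 lie farthest to the left.

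Of 3 peptide carriers at the level, 1 fell. Slc15a5 belongs to the family of proton-coupled peptide carriers and is one of its little-studied members. Its signal was 255 to 688 in wild type (median 438) and 59.6 to 304 in HSALR (median 134), and 7 of 10 HSALR samples were below the wild-type range. The log2 fold was -1.37 ± 0.26 (2.59-fold, adjusted p = 0.00209), the largest among the carriers, and its spread was wide, with SDs of 0.46 in wild type and 0.75 in HSALR on the log2 scale. HSALR replicates 9 and 10 were the lowest, at 85.3 and 59.6, and without them the log2 fold was -1.13 (adjusted p = 0.0048). The oligopeptide carriers Slc15a2 and Slc15a4, the latter of endosomes and lysosomes, had -0.09 ± 0.14 and -0.07 ± 0.14, and their groups overlapped.

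Of 25 ion carriers, 2 fell and 0 rose by limma, with 1 higher at an unadjusted p under 0.05, and after quantile normalization 7 were lower. Slc9a2, a sodium-proton exchanger, had 244 to 345 in wild type (median 287) and 168 to 269 in HSALR (median 217), a log2 fold of -0.40 ± 0.10 (adjusted p = 0.0144) with 8 of 10 samples below the wild-type range. Slc26a6 exchanges chloride for bicarbonate, oxalate and other anions. It had 158 to 280 in wild type (median 198) and 115 to 181 in HSALR (median 151), with 5 of 10 samples below the wild-type range and a log2 fold of -0.40 ± 0.10 (adjusted p = 0.0252). Neither call held without HSALR replicates 9 and 10, where the adjusted p was 0.059 for Slc9a2 and 0.0608 for Slc26a6, at log2 folds of -0.34 and -0.39. The 5 ion carriers called lower only after quantile normalization were the proton exchangers Slc9a8 and Slc9a3, the sodium bicarbonate carrier Slc4a4 and the magnesium carriers Slc41a1 and Slc41a3. Their log2 folds as deposited lay between -0.47 ± 0.15 for Slc9a8 and -0.22 ± 0.09 for Slc9a3, whose mean met the level in wild type only.

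The chloride carriers that set cell volume did not pass. Slc12a2, the sodium-potassium-chloride carrier NKCC1, had 1462 to 2124 in wild type (median 1894) and 1531 to 2307 in HSALR (median 1950), with a log2 fold of 0.04 ± 0.09 that was -0.02 after quantile normalization. The potassium-chloride carriers Slc12a4 and Slc12a7 had 0.20 ± 0.18 and 0.10 ± 0.16, and of 7 tested genes of the WNK kinases that control these carriers 0 were called, with 1 each way at an unadjusted p under 0.05 and a median of -0.17. The sodium-calcium exchanger Slc8a3 had 0.26 ± 0.13 (adjusted p = 0.261), while its relative Slc8a1 was below the level. The phosphate carriers Slc20a1 and Slc20a2 had 0.01 ± 0.18 and 0.25 ± 0.10 (adjusted p = 0.167), and the sign for Slc20a1 turned after quantile normalization (-0.05).

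Of 23 metal carriers 0 passed limma's test in either direction, with 4 higher at an unadjusted p under 0.05 and a median log2 fold of 0.09. Those 4 were Slc39a6, Slc39a1, Slc39a7 and Slc30a2, which carry zinc, at 0.56 ± 0.24, 0.36 ± 0.16, 0.28 ± 0.13 and 0.40 ± 0.19, with adjusted p from 0.182 for Slc39a6 to 0.239 for Slc30a2. Without HSALR replicates 9 and 10 these log2 folds were 0.21, 0.17, 0.14 and 0.25. Slc39a6 had 525 and 512 in these 2 samples and 97.8 to 207 in HSALR replicates 1 to 8, and Slc39a1 had 1094 and 1209 against 454 to 784. Slc39a14, a zinc and iron importer known from inflammation, had 139 to 229 in wild type and 125 to 314 in HSALR replicates 1 to 8, but 1152 and 1232 in replicates 9 and 10. Its log2 fold was 0.64 ± 0.34 (adjusted p = 0.294), and 0.13 without those. The iron exporter Slc40a1 (ferroportin) had -0.19 ± 0.13 and was below the wild-type range in 7 of 10 samples and above it in 2, which were replicates 9 and 10 at 625 and 655. Slc30a1, which exports zinc from the cell, had 0.17 ± 0.14. Of 13 tested genes of metal storage and sensing limma called 0, with 3 higher at an unadjusted p under 0.05 and a median of 0.09.

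Of 14 carriers of organic anions and cations, 2 fell and 1 rose. Slc47a1 (MATE1) exports organic cations in exchange for protons. It had 571 to 692 in wild type (median 646) and 660 to 1211 in HSALR (median 1018), above the wild-type range in 9 of 10 samples, with a log2 fold of 0.57 ± 0.12 (1.48-fold, adjusted p = 0.00407). The lowest HSALR sample was replicate 9, and without replicates 9 and 10 the log2 fold was 0.67. Slc22a7 (OAT2), a carrier of organic anions, had 112 to 242 in wild type (median 165) and 92.4 to 134 in HSALR (median 113), a log2 fold of -0.47 ± 0.12 (adjusted p = 0.0188). HSALR samples lay below the wild-type range in 5 of 10 cases, and with limma's array weights the adjusted p was 0.0511. Slc22a17, known as a receptor for lipocalin, had 138 to 242 in wild type (median 165) and 94.4 to 144 in HSALR (median 128), a log2 fold of -0.40 ± 0.10 (adjusted p = 0.0162) with 8 of 10 below.

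Of 4 carriers of fatty acids and carnitine, 1 rose. Slc22a4 (OCTN1) is related to the carnitine carrier and takes up ergothioneine, an antioxidant from food. It had 34.1 to 53.2 in wild type (median 43.1), a dim range, and 50.3 to 123 in HSALR (median 84.9). In 9 of 10 HSALR samples it was above all wild-type ones, with a log2 fold of 0.74 ± 0.12 (1.67-fold, adjusted p = 0.000692), the largest rise among the carriers. The rule could keep Slc22a4 only if it was high in HSALR, so this rise and its rank are a description and no support. Slc27a1, a fatty acid carrier of muscle, had -0.23 ± 0.10 (adjusted p = 0.202), and was lower after quantile normalization (-0.29, adjusted p = 0.0397). A further group held 20 other carriers, of which 1 rose and 0 fell. It included Slc16a6 and Slc16a9 of the monocarboxylate carrier family, which are not counted under fatty acids and carnitine or under monocarboxylates. Slc16a6, the one that rose, had 48.7 to 108 in wild type (median 80.0) and 89.6 to 155 in HSALR (median 119). Its log2 fold was 0.52 ± 0.12 (1.44-fold, adjusted p = 0.0107), with 7 of 10 HSALR samples above the wild-type range.

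Of the 5 carriers grouped under monocarboxylates and dicarboxylates, without Slc16a6, 0 passed limma's test, with 1 lower at an unadjusted p under 0.05. Slc16a1 (MCT1), which takes up lactate, had 1537 to 2145 in wild type (median 1878) and 1752 to 2645 in HSALR (median 2062), at 0.18 ± 0.09 (adjusted p = 0.246). Slc16a3 (MCT4), the lactate exporter of fast fibres, had 133 to 299 (median 176) and 101 to 201 (median 127), at -0.38 ± 0.14 (adjusted p = 0.124), and after quantile normalization it was lower (-0.42, adjusted p = 0.0445). Of 5 tested partner subunits of carriers limma called 0. At an unadjusted p under 0.05, 2 of them were higher and 1 was lower. Their member Bsg (basigin), which brings both lactate carriers to the surface, had -0.33 ± 0.11 (adjusted p = 0.0847), and -0.41 after quantile normalization (adjusted p = 0.00811).

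The creatine carrier Slc6a8 had 1243 to 1830 in wild type (median 1361) and 1150 to 1732 in HSALR (median 1302), a log2 fold of -0.04 ± 0.10 (95% interval -0.24 to 0.16). The taurine carrier Slc6a6 had 0.14 ± 0.12, with 7 of 10 HSALR samples above the wild-type range and 1 below it. Of 8 tested genes of creatine and taurine metabolism limma called 0, with 1 at an unadjusted p under 0.05. Of 6 nucleoside carriers it called 0, with 1 at that level. Slc43a3, which carries purine bases, had 0.37 ± 0.15 (adjusted p = 0.157), and the equilibrative nucleoside carrier Slc29a1 had -0.12 ± 0.13. Of 10 nucleotide sugar carriers of the Golgi and endoplasmic reticulum it called 0, with 2 higher at an unadjusted p under 0.05 and a median of 0.14. Slc35d2, which carries UDP-sugars, and the UDP-galactose carrier Slc35a2 had 0.34 ± 0.14 (adjusted p = 0.151) and 0.31 ± 0.14 (adjusted p = 0.22). Of 8 vitamin, choline and cofactor carriers, 2 neurotransmitter carriers and the 4 genes named after a carrier limma called 0, with 1, 0 and 0 at an unadjusted p under 0.05. In the first of these groups the vitamin C carrier Slc23a2 had 0.26 ± 0.09 (adjusted p = 0.1), and was called higher after quantile normalization (0.20, adjusted p = 0.0354). It was above the wild-type range in 8 of 10 HSALR samples and below it in 1. The 108 carriers not given one by one lay between -0.28 and 0.32, with 0 called.

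Quantile normalization, which gives every array the same distribution of signals, called 9 of the 173 carriers higher and 19 lower, against 6.96% and 8.51% of all genes. The share of carriers lower was then nearer to that of all genes than with the scaling as deposited. Over all genes the calls were then 803 higher and 981 lower, in place of 359 and 266, so which direction held more calls turned with the scaling. Of the 13 carriers called only then, Slc43a2, Slc7a1, Slc23a2 and the orphan members Slc35e4 and Slc35f5 were higher, at log2 folds of 0.54, 0.38, 0.26, 0.42 and 0.28 as deposited. Slc16a3, Slc16a9, Slc27a1 and the 5 ion carriers above were lower, with Slc16a9, a carnitine efflux carrier, at -0.31 ± 0.13. Without HSALR replicates 9 and 10, and with the scaling as deposited, 4 carriers were higher and 9 lower, against 2.09% and 1.84% of all genes. Slc9a2 and Slc26a6 were the calls lost. With quantile normalization and without HSALR replicates 9 and 10, 4 carriers were higher and 13 lower, against 658 and 698 of all genes. The quantile-normalized calls of Slc23a2, Slc27a1 and Slc16a3 were then lost. Higher were 1 amino acid carrier in place of 3 and 1 member of the group of other carriers in place of 3. Lower were 3 ion carriers in place of 7.

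Related carriers were then compared within each array, as the difference in log2 signal between both genes of a pair, which, apart from the added 16, does not depend on the scale of the array. Such a difference shows unequal change and not which gene changed. There were 9 pairs, tested with an exact permutation test that went through all 92378 ways to assign the group labels, 2-sided, with p-values adjusted over the 9. The pairs were drawn up with the falls of Slc38a4 and Slc15a5 known, so those 2 pairs add no independent evidence. Their small p-values also enter the adjustment and can lower the adjusted p of the other pairs. Slc38a4 minus Slc38a2 gave a difference of -1.65 ± 0.21, HSALR minus wild type (adjusted p = 0.00029), with 9 of 10 HSALR samples below the wild-type range. For Slc15a5 minus Slc15a4 the difference was -1.30 ± 0.34 (adjusted p = 0.00409). The lactate exporter Slc16a3 minus the importer Slc16a1 gave -0.56 ± 0.17, with 7 of 10 HSALR samples below all wild-type ones (exact p = 0.00542, adjusted p = 0.0141). Slc7a2 minus Slc7a1, both carriers of cationic amino acids, gave -0.55 ± 0.17, with 6 of 10 below (exact p = 0.00625, adjusted p = 0.0141). In both of the last pairs neither gene passed alone, and without HSALR replicates 9 and 10 the adjusted p was 0.052 for each.

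The glucose pair Slc2a4 minus Slc2a1 gave -0.37 ± 0.15 (exact p = 0.0398, adjusted p = 0.0717), with 6 of 10 HSALR samples below the wild-type range and an SD of 0.06 in wild type against 0.49 in HSALR. After quantile normalization of the arrays its adjusted p was 0.0275. In HSALR replicates 9 and 10 the signal of Slc2a1 was 802 and 661, against 322 to 552 in HSALR replicates 1 to 8. The signal of Slc2a4 was 3666.5 and 3627.2 in replicates 9 and 10, against 2937.8 to 5105.5 in HSALR replicates 1 to 8. The pair difference without replicates 9 and 10 is not given here. The other 4 pairs did not pass: Slc20a2 minus Slc20a1 had 0.24 ± 0.19, Slc6a8 minus Slc6a6 -0.18 ± 0.12, Slc7a5 minus Slc3a2 -0.16 ± 0.23 and Slc12a7 minus Slc12a4 -0.10 ± 0.19, at adjusted p from 0.253 to 0.595 by the exact permutation test. The pair of Slc8a3 and Slc8a1 was not run, because Slc8a1 was below the level.

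**Figure D3:**
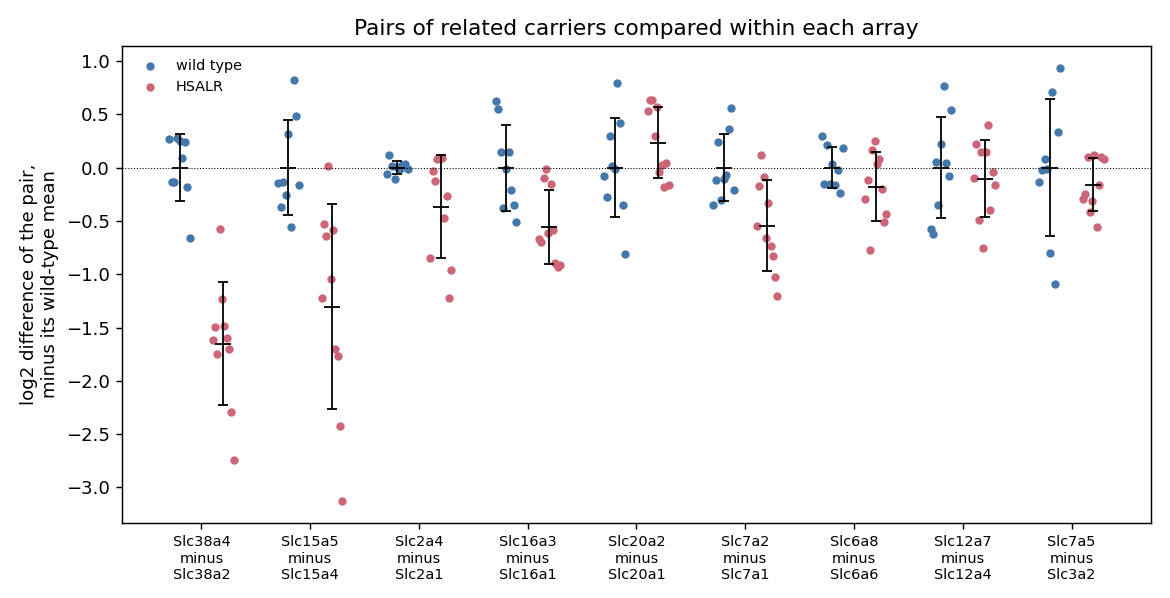
Difference in log2(signal + 16) between both genes of each of 9 pairs, minus the wild-type mean of that difference (vertical axis), for each wild-type (blue) and HSALR (red) sample, with the mean and SD of each group in black. The HSALR means lie at -1.65 for Slc38a4 minus Slc38a2 and at -1.30 for Slc15a5 minus Slc15a4, and the wild-type points of Slc2a4 minus Slc2a1 are the tightest.

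In 11 carriers the mean of HSALR replicates 9 and 10 was 1 or more on the log2 scale above that of replicates 1 to 8, and in 1, Slc15a5, below it by as much. The share that stood higher in this way was 6.36% of the carriers and 6.3% of all genes. These 12 carriers were picked after their values were seen, and the naming rule leaves out several of them. They include the zinc carriers Slc39a14 and Slc39a6, 2.55 and 1.71 higher in replicates 9 and 10, and the neutral amino acid carrier Slc1a4, 1.65 higher, at 284 and 298 against 52.4 to 124 in replicates 1 to 8. The bile acid carrier family member Slc10a6 was 1.54 higher, the endosomal proton exchanger Slc9a9 1.52 and the Golgi sulfate donor carrier Slc35b3 1.37. The amino acid carrier Slc36a4 and the inositol carrier Slc2a13 were 1.33 and 1.32 higher. Slc7a5, Slc7a7 and Slc38a6, which carry amino acids, were 1.21, 1.18 and 1.16 higher. Of these 11 carriers 0 passed between HSALR and wild type over all samples, and for Slc2a13, Slc38a6, Slc9a9 and Slc35b3 the log2 fold of HSALR against wild type was 0.12, 0.07, 0.24 and 0.14 with both replicates and -0.14, -0.16, -0.06 and -0.14 without. The macrophage and fibroblast marker genes were high in the same 2 samples, as given above, and their part in these values was not tested.

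**Figure D4:**
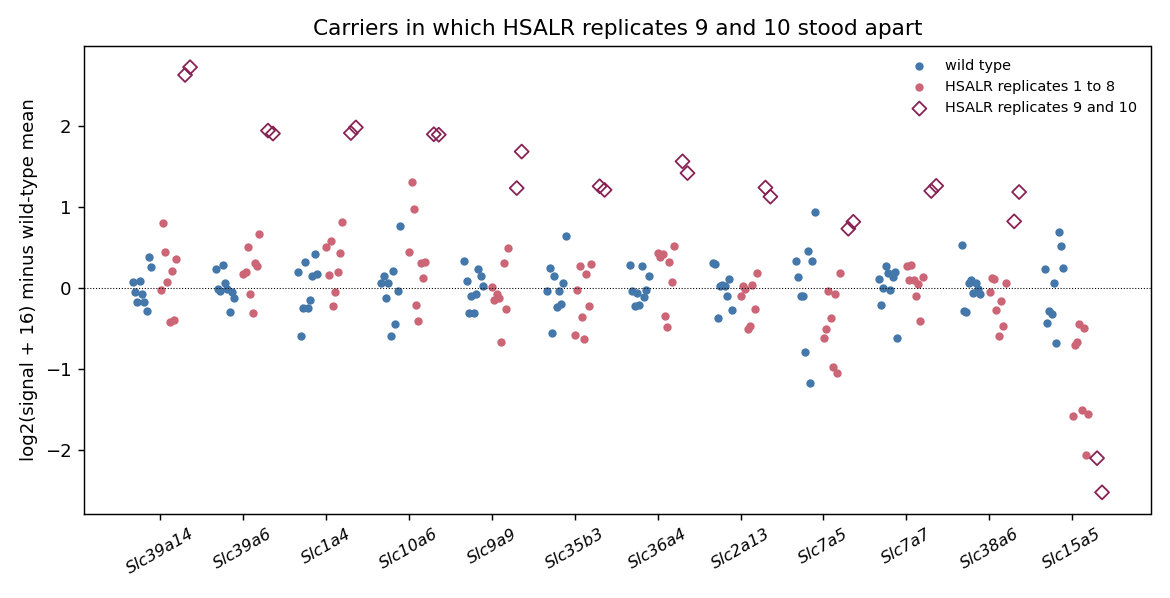
Log2(signal + 16) minus the wild-type mean (vertical axis) of the 12 carriers in which HSALR replicates 9 and 10 (open diamonds) differed by 1 or more from HSALR replicates 1 to 8 (red points), with wild-type samples in blue. Slc39a14 shows the widest gap, 2.55, and Slc15a5 the one in the other direction.

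The 145 genes below the level are not all carriers either, as Slc2a4rg-ps, Slc6a19os and Slc36a1os are only named after one. Of these genes, a limma fit over all probe sets without a filter called 0 higher and 1 lower, with 13 at an unadjusted p under 0.05. Of all 6660 genes below the level this fit called 0.586% higher and 0.285% lower. The carrier called lower was Slc32a1, the vesicular carrier of GABA and glycine, at -0.62 ± 0.16 (adjusted p = 0.0496). Its signal was 8.61 to 37.6 in wild type and 1.75 to 23.7 in HSALR. Such signals lie in the dim part of the arrays, and the groups overlapped.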

How the data were processed

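RNA of 9 wild-type and 10 HSALR EDL samples was measured on 1-colour Affymetrix arrays. For each of 45101 probe sets the authors deposited a signal intensity on a linear scale, and the submitters' processing notes name GCOS 1.4. How the signals were computed and scaled is not given in the sources used here. The 64 controls were left out. Of the other probe sets 34945 had 1 gene symbol, 932 several and 9160 are unnamed here, and 34741 symbols were updated through the Entrez identifier. Values were used as log2(value + 16) of the deposited intensities, and the 22519 probe sets at or above the median level of 6.09 were tested with limma 3.58.1 under R 4.3.3 (functions lmFit and eBayes, 2-sided), with Benjamini-Hochberg adjustment over all of them and a false discovery rate of 0.05. Fits were tested on simulated data. Pairs were tested by exact permutation in Python 3.11.15, and figures were drawn with matplotlib 3.10.9.

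The members, the substrate groups, the gene lists and the alternatives were chosen with earlier results of these data known. Carriers named with values were those past the threshold, a list of 60 transporters of muscle interest (54 at the level), up to 3 per substrate group with the smallest p, those at the limit of the level, and those highest or most variable in wild type. This gave 89 genes, of which 33 are given in ranges only. The alternatives were pseudocounts of 1 and 64, no filter, quantile normalization, centring of arrays on their median, array weights, a block by replicate number, a variance trend, the 3'/5' ratio of control probe sets as a covariate, the mean of a gene's probe sets, and leaving out samples.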

Additional observations from a re-analysis of the deposited data

Results flagged for a closer look

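Among 130 groups of samples of the carriers given one by one, 2 held a sample far from the others, and chance alone flags about 1 in 20 groups. Both were wild type replicate 1, the array with the highest median signal of the wild type, 71.9. Its signal of Slc26a6 was 280.1, against 158 to 207 in the other wild-type samples, and its signal of Slc38a6 was 237.0, against 127 to 171.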

How the results depend on the processing

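The calls of 4 carriers higher and 11 lower stayed within 4 to 6 and 11 to 12 when each sample was left out. After quantile normalization 9 carriers were higher and 19 lower, and with arrays centred on their median 5 and 16. With array weights 17 were higher and 10 lower, and with the 3'/5' covariate 13 and 12. In these last fits more carriers were higher than lower, so the direction with more calls turned. The count of all genes higher rose in these fits too, as given next. Over all genes, 359 were higher and 266 lower. The count of genes higher was 237 without a filter, 803 with quantile normalization, 567 with arrays centred on their median, 1250 with array weights, 982 with the 3'/5' covariate, and 658 without HSALR replicates 9 and 10 after quantile normalization. Leaving out each sample gave 248 to 853, the highest without HSALR replicate 5, the array with the lowest median signal. Genes lower were 981 with quantile normalization, 645 with centring, and 698 without replicates 9 and 10 after quantile normalization.

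Same-numbered samples did not deviate together (correlations -0.24 to 0.13, and 1 of 9 samples correlated best with its own number). The labels do not say whether the numbers pair the samples, and such correlations cannot settle it. With the replicate number as a block 228 genes were higher and 173 lower, with 4 and 10 carriers. Slc26a6 was lost (adjusted p = 0.108). With same-numbered samples as pairs, the differences were -1.10 for Slc15a5 minus Slc15a4, -0.52 for Slc16a3 minus Slc16a1 and -0.47 for Slc7a2 minus Slc7a1, each at an adjusted p of 0.0527. Without HSALR replicates 9 and 10 the Slc16a3 pair had -0.47 and the Slc7a2 pair -0.40, and after quantile normalization the Slc2a4 pair had -0.40.

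Signs that turned belonged to carriers that did not pass. They were Slc2a12 (-0.012 with quantile normalization and -0.0073 with centring), Slc3a2 (0.091 with the 3'/5' covariate), Slc15a4 (0.063 with it), Slc15a2 (0.024 as mean of probe sets), Slc6a6 (-0.054 so), Slc6a8 (0.033 with array weights) and Slc12a2 (-0.019 with quantile normalization, -0.0091 centred). Slc20a1 had -0.046 with quantile normalization, -0.036 centred, -0.045 in the block, -0.10 without replicates 9 and 10 and -0.11 with quantile normalization besides. Without replicates 9 and 10, and then with quantile normalization too, Slc12a7 had -0.049 and -0.060, Slc2a13 -0.14 and -0.16, Slc38a6 -0.16 and -0.16 (block -0.052), Slc9a9 -0.061 and -0.082 and Slc35b3 -0.14 and -0.15. Leaving out each sample gave -0.12 to 0.034 for Slc3a2, -0.063 to 0.13 for Slc20a1, -0.0029 to 0.073 for Slc12a2, -0.076 to 0.013 for Slc6a8, -0.0016 to 0.19 for Slc2a13 and -0.052 to 0.15 for Slc38a6. The cause of these changes was not tested. The background of each array was not analysed here, so how far dim carriers such as Slc22a4 lay above it is not known.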
